A study of Mus musculus with 12 samples.

Results

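Cux1, Cux2, Rorb, Rasgrf2, Lamp5, Fezf2, Tle4, Tbr1 and Etv1 are genes used to mark the excitatory neurons of particular layers of the cerebral cortex. They were taken by symbol from the expression tables of 12 mouse brain libraries. All 9 were among the 25749 genes listed and among the 14771 genes that passed the filter on low counts. Bulk total RNA came from 4 injured mice given continuous αLFA1/VLA4, 4 injured mice without it and 4 uninjured mice. αLFA1/VLA4 denotes antibodies against the integrins LFA1 and VLA4, which leukocytes use to leave the blood. All mice were male, of strain B6 and aged 13 weeks, and the injury was cerebrovascular. On day 20 the mice were perfused with saline and a cube of brain 3 mm on each side was frozen; each stranded library was made from 500 ng of total RNA. The labels give no control antibody, no dose and no brain region for the cube, and they describe the site of the cube only as injured tissue.

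The excitatory neurons of the neocortex are stacked in layers with different targets. Neurons of the upper layers II and III connect cortical areas, layer IV receives thalamic input, layer V sends axons to the striatum, brainstem and spinal cord, and layer VI projects back to the thalamus. Each identity is held by transcription factors that remain on in the adult, so their transcripts serve as layer markers, although several are also made by other brain cells. In bulk tissue, fewer cells of a type and less RNA per cell cannot be told apart.

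All 9 genes were read in every library, with 321 to 3228 exon reads per gene and library. Only 4 exon reads of the 9 genes were not uniquely assigned. Other excitatory markers of the forebrain were also present in every library, with a summed level of 4025 to 4306 TPM (reads per exon length, scaled to the same total in each library) in injured mice given αLFA1/VLA4, 5492 to 6625 TPM in injured mice and 4751 to 5132 TPM in uninjured mice over 13 genes. Markers of the striatum, some of which cortical neurons also make, summed to 1404 to 1475 TPM in injured mice given αLFA1/VLA4, 1381 to 1548 TPM in injured mice and 1441 to 1609 TPM in uninjured mice. Markers of the thalamus summed to 138 to 176 TPM in injured mice given αLFA1/VLA4, 159 to 188 TPM in injured mice and 100 to 118 TPM in uninjured mice.

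Exon reads per library numbered 13330379 to 13917157 in injured mice given αLFA1/VLA4, 15507462 to 16121577 in injured mice and 15159988 to 15781229 in uninjured mice. Mitochondrial genes took 8.83 to 11.0% of these reads with αLFA1/VLA4, 4.75 to 7.99% in injured mice and 10.3 to 12% in uninjured mice. Fold changes also followed the GC content of transcripts, as the plot of fold change against GC content shows. In injured against uninjured mice the median log2 fold change of all tested genes was -0.26 at a GC content of 40 to 45% and 0.23 at 55 to 60%. In injured mice given αLFA1/VLA4 against injured mice it was 0.23 at 40 to 45% GC and -0.16 at 55 to 60% GC. The 9 markers span 42.6% GC (Rorb) to 58.1% GC (Cux2), so each comparison is given both as scaled and after a fitted trend of GC content and length was taken out of each library (called the trend below). Normalised CPM are counts per scaled library total.

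**Figure D1:**
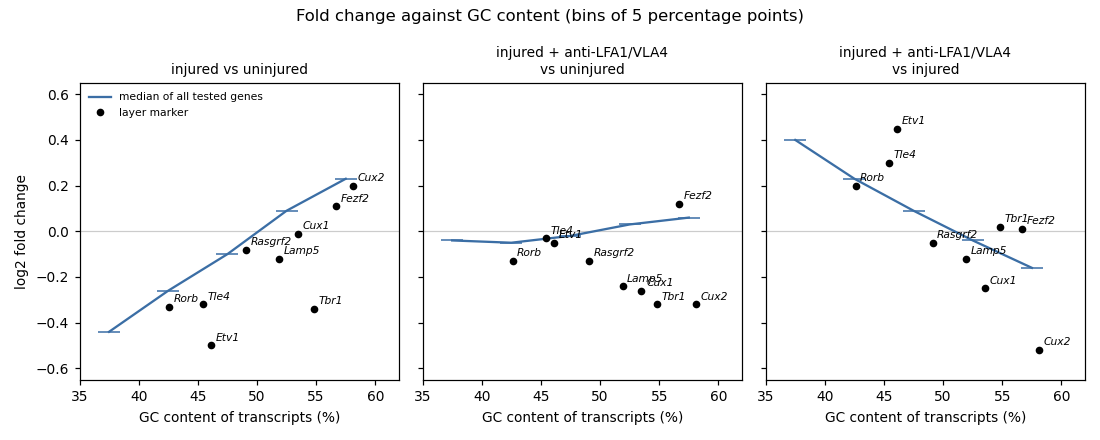
Log2 fold change (vertical axis) against the GC content of transcripts in percent (horizontal axis) for the 9 layer markers (points) in 3 comparisons, with the median of all tested genes per bin of 5 percentage points (blue). Tbr1 at 54.8% GC lies far below the blue line in injured against uninjured mice, whereas Rorb at 42.6% GC lies near it. Cux2 at 58.1% GC lies far below it in injured mice given αLFA1/VLA4 against injured mice.

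Rorb, Tle4 and Etv1 were the markers with the lowest GC content, and all were lowest on average in injured mice. Their promoters are shown because these genes of low GC content were low in the same group. Tbr1, at 54.8% GC, was also lowest in injured mice in normalised CPM, and its promoter is not shown. It averaged 87.7 CPM in injured mice, 89.1 CPM with αLFA1/VLA4 and 111 CPM in uninjured mice. The sequences are the 250 bases before the transcription start in RefSeq on GRCm38.p6, 5′ to 3′ on the strand of the gene. Of the start sites listed for each gene, the one without an annotated GENCODE exon in its window was used, and for Rorb, with more than one such start, the one at the end of the annotated gene. Capitals mark matches on either strand to CCAAT, the CCAAT box, or GGGCGG, the GC box, and no matches overlapped.
Rorb: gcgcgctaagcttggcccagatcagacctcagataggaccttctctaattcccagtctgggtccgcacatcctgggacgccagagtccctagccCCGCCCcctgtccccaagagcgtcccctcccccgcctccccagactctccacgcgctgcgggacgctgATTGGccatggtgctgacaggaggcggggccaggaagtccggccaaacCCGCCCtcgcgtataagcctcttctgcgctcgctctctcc
Tle4: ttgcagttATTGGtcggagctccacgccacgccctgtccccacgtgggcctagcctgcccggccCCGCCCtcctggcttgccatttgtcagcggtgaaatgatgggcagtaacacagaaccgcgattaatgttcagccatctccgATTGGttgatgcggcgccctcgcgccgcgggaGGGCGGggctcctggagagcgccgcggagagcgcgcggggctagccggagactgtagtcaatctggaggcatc
Etv1: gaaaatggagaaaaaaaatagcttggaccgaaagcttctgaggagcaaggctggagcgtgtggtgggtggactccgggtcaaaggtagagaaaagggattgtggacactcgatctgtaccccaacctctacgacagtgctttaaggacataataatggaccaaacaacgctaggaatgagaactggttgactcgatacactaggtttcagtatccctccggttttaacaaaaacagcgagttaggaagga
The Rorb window (chr19:19111197-19111446, minus strand) held 1 CCAAT and 2 GC box matches, and its own GC content was 66.0%. The Tle4 window (chr19:14598184-14598433, minus strand) held 2 matches of each and had 65.2% GC. The Etv1 window (chr12:38779832-38780081, plus strand) held neither motif and had 46.4% GC, and it lies between exons of the annotated gene. None of the 3 windows held TATAAA, the TATA box. Over 32851 promoter windows of this length, 33.8% held CCAAT, 32.7% the GC box and 12.4% the TATA box on either strand, and the median GC content was 52.4%. The 3 genes therefore share no one of these motifs, and a high GC content of the promoter went with a low GC content of the transcript in Rorb and Tle4.

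On the per-length scale of TPM, Lamp5 was the most abundant marker and Rorb the least in each group. Lamp5, a membrane protein of the lysosome family made by upper-layer neurons and by some interneurons, averaged 195 ± 16.6 TPM in injured mice given αLFA1/VLA4, 237 ± 17.2 TPM in injured mice and 231 ± 9.23 TPM in uninjured mice (SD, n = 4 each). Tbr1, the T-box factor of layer VI neurons, came next with 52.4 ± 3.45 TPM in injured mice given αLFA1/VLA4, 57.3 ± 5.88 TPM in injured mice and 65 ± 4.72 TPM in uninjured mice. Rorb, a nuclear receptor of layer IV, averaged 10 ± 1.51 TPM in injured mice given αLFA1/VLA4, 9.67 ± 1.28 TPM in injured mice and 10.9 ± 1.1 TPM in uninjured mice. Between Tbr1 and Cux1 the neighbours in the order overlapped in most cases. In uninjured mice Rasgrf2 (35.2 TPM), Tle4 (33.8), Etv1 (24.9), Cux2 (20.2) and Fezf2 (18.4) each overlapped the next in the range of their 4 libraries. Cux1 at 12.8 TPM was apart from Fezf2 and overlapped Rorb. Cux2 had rank 7 of 9 with αLFA1/VLA4 at 16.3 TPM, apart from both neighbours, rank 5 in injured mice at 26 TPM and rank 6 in uninjured mice.

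**Figure D2:**
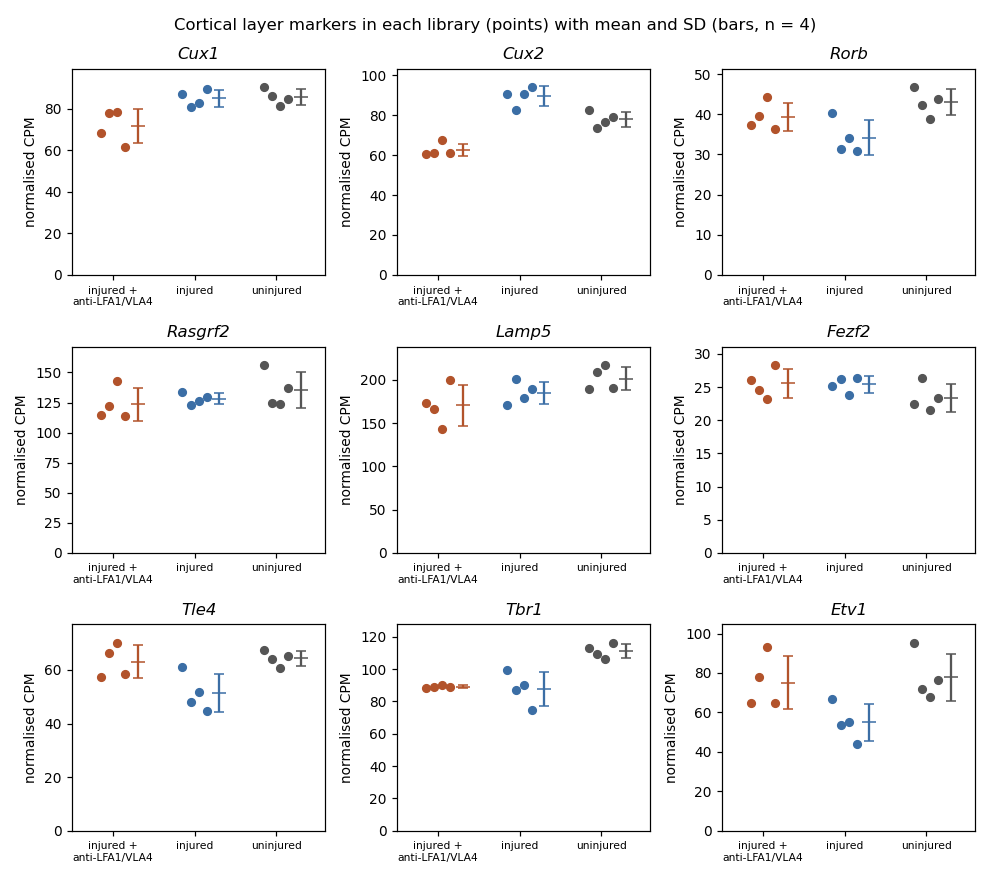
Normalised CPM (vertical axes, starting at 0) of each of the 9 layer markers in each library (points) of injured mice given αLFA1/VLA4, injured mice and uninjured mice, with the mean and SD of 4 libraries beside them. Tbr1 is below all uninjured libraries in both injured groups, and Cux2 is highest in injured mice and lowest with αLFA1/VLA4.

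The first comparison asked which layer markers differed in injured tissue. Tbr1 and Etv1 fell by 21% and fell by 29.4% in injured against uninjured mice, with no overlap between libraries in normalised CPM. On TPM the libraries of both genes overlapped. Both mark deep layers, as do Tle4 and Fezf2, and Fezf2 did not pass at a log2 fold change of 0.11. Tle4 and Rorb fell by 20.2% and fell by 20.5%, with overlapping libraries. Cux2 was 15% higher, also without overlap in normalised CPM, which was found in 30.3% of all tested genes. In the edgeR test 4 of 9 markers fell and 1 rose, against 11.0% of all tested genes lower and 11.9% higher, 23.0% in either direction. The median log2 fold change was -0.12 over the 9 markers and 0.03 over all tested genes, or -0.11 and -0.01 with the trend removed.

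Tbr1 (ENSMUSG00000035033, GRCm38 chr2:61802930-61814114, plus strand, 8 annotated exons) had 99.5, 86.9, 90.1 and 74.4 CPM in injured mice, against 113, 109, 106 and 116 CPM in uninjured mice. Every injured library was below every uninjured one. The mean of 87.7 ± 10.3 CPM in injured mice against 111 ± 4.26 CPM in uninjured mice (SD, n = 4 each) gave a log2 fold change of -0.34 (SE 0.08, edgeR adjusted p = 0.0106). The call held with each of 8 libraries left out in turn, at log2 fold changes of -0.43 to -0.29. After removal of the trend it was -0.47 (SE 0.08, edgeR adjusted p = 0.00104). On log2(TPM + 1) the log2 fold change was -0.18 and did not pass (limma adjusted p = 0.103), where the median of all genes stood at 0.16.

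Etv1 (ENSMUSG00000004151, chr12:38779380-38870484, plus strand), an ETS transcription factor of layer V neurons, had 66.8, 53.8, 55.1 and 43.9 CPM in injured mice, against 95.1, 71.9, 67.6 and 76.4 CPM in uninjured mice. The groups did not overlap, by less than 1 CPM, and injured replicate 4 was the lowest library. Its log2 fold change was -0.50 (SE 0.15, edgeR adjusted p = 0.0300), and -0.26 (SE 0.07, edgeR adjusted p = 0.0258) with the trend removed. As scaled, the call was lost without injured replicates 2, 3 or 4 or uninjured replicates 1 or 4 (edgeR adjusted p = 0.0594 to 0.0981). It was lost in 4 of 8 fits with the trend removed, those without injured replicates 3 or 4 or uninjured replicates 1 or 4 (edgeR adjusted p = 0.0518 to 0.0836).

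Tle4 (ENSMUSG00000024642, chr19:14448150-14598051, minus strand), a Groucho-family corepressor of layer VI neurons, had 61.1, 48.1, 51.6 and 44.8 CPM in injured mice, against 67.6, 64.1, 60.7 and 65.2 CPM in uninjured mice. Only injured replicate 1 reached into the uninjured range. Rorb (ENSMUSG00000036192, chr19:18930605-19111196, minus strand) had 40.4, 31.4, 34.0 and 30.8 CPM in injured mice, against 46.7, 42.4, 38.9 and 43.9 CPM in uninjured mice, and again injured replicate 1 alone overlapped. The log2 fold changes were -0.32 for Tle4 (SE 0.10, edgeR adjusted p = 0.0295) and -0.33 for Rorb (SE 0.10, edgeR adjusted p = 0.0289). The median of all genes of like GC content was -0.10 at 45 to 50% for Tle4 and -0.26 at 40 to 45% for Rorb. Neither passed with the trend removed, at -0.14 for Tle4 (edgeR adjusted p = 0.101) and 0.05 for Rorb (edgeR adjusted p = 0.676). As scaled, both were called only with injured replicate 1 or uninjured replicate 3 left out, and not with any of the other 6 libraries left out.

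Among the upper-layer genes, Cux2 (ENSMUSG00000042589, chr5:121856366-122050102, minus strand), a homeodomain factor of layers II to IV, had 90.9, 82.8, 90.9 and 94.0 CPM in injured mice, against 82.4, 73.8, 76.7 and 79.0 CPM in uninjured mice. The ranges met within 1 CPM but did not overlap. The log2 fold change of 0.20 (SE 0.06, edgeR adjusted p = 0.0346) compares with a median of 0.23 over all genes of 55 to 60% GC, and it was 0.10 (edgeR adjusted p = 0.205) with the trend removed. The call held without injured replicate 2 or uninjured replicate 1 and was lost without any other single library (edgeR adjusted p = 0.0632 to 0.127). Cux1, its close relative, differed by a log2 fold change of -0.01 (edgeR adjusted p = 0.940), with 80.8 to 89.4 CPM in injured and 81.1 to 90.3 CPM in uninjured mice.

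Lamp5 had 171, 201, 179 and 189 CPM in injured mice, against 189, 209, 217 and 191 CPM in uninjured mice. The groups overlapped, and the log2 fold change of -0.12 did not pass (edgeR adjusted p = 0.336). With the trend removed it was -0.26 and passed (SE 0.04, edgeR adjusted p = 0.00121), as it did with each library left out. Rasgrf2, an exchange factor for Ras proteins in upper-layer neurons, had 123 to 134 CPM in injured and 124 to 156 CPM in uninjured mice, for a log2 fold change of -0.08 (edgeR adjusted p = 0.490). Fezf2, a zinc finger factor that specifies layer V neurons with axons to the brainstem and spinal cord, had 23.8 to 26.4 CPM in injured and 21.5 to 26.4 CPM in uninjured mice, for a log2 fold change of 0.11 (edgeR adjusted p = 0.316). Without the trend, 3 of 9 markers were lower (Lamp5, Tbr1, Etv1) and 0 higher, against 10.6% of all tested genes lower and 6.24% higher, 16.8% in either direction.

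**Figure D3:**
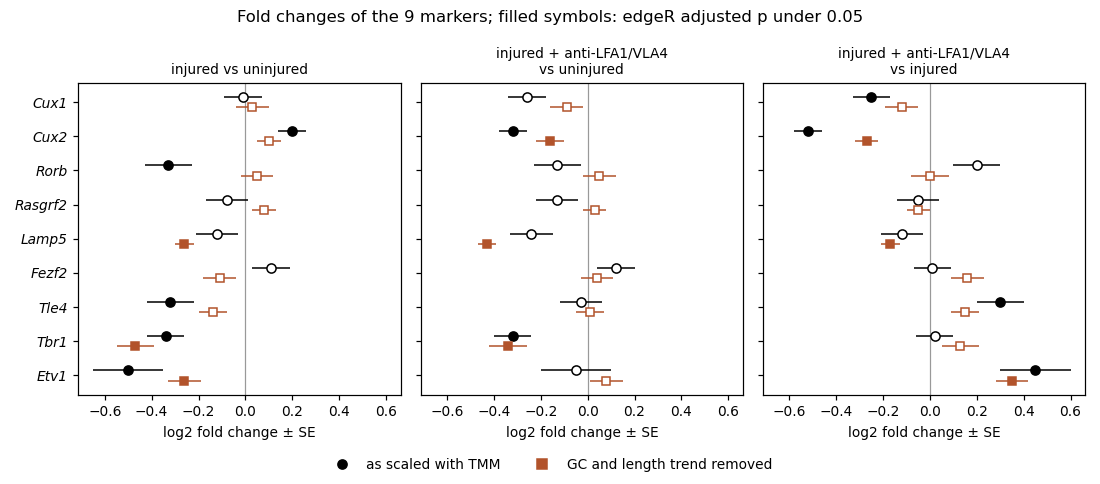
Log2 fold change with SE (horizontal axes) of the 9 layer markers (rows) in 3 comparisons, as scaled with TMM (circles) and with the GC and length trend of each library removed (squares), filled where the edgeR adjusted p is under 0.05. In both forms Tbr1 is lower in each injured group than in uninjured mice, and Cux2 is lower and Etv1 higher with αLFA1/VLA4 than in injured mice.

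The second comparison set injured mice given αLFA1/VLA4 against uninjured mice. Cux2 fell by 19.7% and Tbr1 fell by 19.8%, each without overlap between libraries, and the other 7 markers did not pass. The 2 of 9 markers that fell compare with 3.22% of all tested genes lower, and the 0 that rose with 6.30% higher, 9.53% in either direction. At an unadjusted p under 0.05, 0 markers were higher and 4 lower, against 15.1% of all tested genes higher and 11.9% lower. The DESeq2 Wald test called 0 markers higher and 3 lower, with Cux1 the third, against 7.02% of all genes higher and 5.98% lower. The median log2 fold change was -0.13 over the markers and 0.01 over all tested genes. With the trend removed it was 0.01 over the markers and -0.04 over all genes, so the order of these medians turned. The uninjured libraries are the same as in the first comparison.

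Tbr1 had 88.4, 88.6, 90.2 and 89.0 CPM with αLFA1/VLA4, all below the uninjured libraries given above. The spread of these 4 libraries, 89.1 ± 0.841 CPM (SD, n = 4), was narrow. The log2 fold change was -0.32 (SE 0.08, edgeR adjusted p = 0.0187), and -0.34 (edgeR adjusted p = 0.00551) with the trend removed. As scaled, the call was lost without replicates 1 or 2 given αLFA1/VLA4 or uninjured replicate 4 (edgeR adjusted p = 0.0548, 0.0559 and 0.0602). It held with each library left out once the trend was removed.

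Cux2 had 60.4, 61.2, 67.4 and 61.3 CPM with αLFA1/VLA4, against 73.8 to 82.4 CPM in uninjured mice. Replicate 3 was the highest of its group and still below every uninjured library. The log2 fold change was -0.32 (SE 0.06, edgeR adjusted p = 0.00610), and the call held with each library left out. Without the trend it was -0.16 (edgeR adjusted p = 0.0486), and 1 of 8 fits with a library left out passed (edgeR adjusted p = 0.00964 to 0.132 over the 8).

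Cux1 had 68.2, 77.8, 78.6 and 61.6 CPM with αLFA1/VLA4, below the 81.1 to 90.3 CPM of uninjured mice. The groups did not overlap, yet the log2 fold change of -0.26 did not pass (SE 0.08, edgeR adjusted p = 0.0565). No overlap was also found in 15.6% of all tested genes. Lamp5 had 173, 166, 143 and 200 CPM with αLFA1/VLA4, which overlapped the uninjured 189 to 217 CPM. Its log2 fold change was -0.24 (edgeR adjusted p = 0.114) as scaled and -0.43 (SE 0.04, edgeR adjusted p = 7.84e-06) with the trend removed, where it passed with each library left out. Rorb, Rasgrf2, Fezf2, Tle4 and Etv1 had log2 fold changes of -0.13, -0.13, 0.12, -0.03 and -0.05, and all overlapped. Without the trend, 3 of 9 markers were lower (Cux2, Lamp5, Tbr1) and 0 higher, against 13.4% of all tested genes lower and 7.72% higher, 21.1% in either direction.

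The third comparison asked what differed with αLFA1/VLA4 among injured mice. Cux2 fell by 30.2% with αLFA1/VLA4 and Cux1 fell by 15.8%, while Etv1 and Tle4 were 37% and 22.7% higher, with overlapping libraries. The calls of Cux1 and Tle4 were lost with the trend removed. Tbr1 and Fezf2, which like Etv1 and Tle4 mark deep layers, did not pass, at log2 fold changes of 0.02 and 0.01. Neither did Rorb, Rasgrf2 and Lamp5, at 0.20, -0.05 and -0.12. The 2 of 9 markers that rose compare with 10.9% of all tested genes higher, and the 2 that fell with 10.7% lower, 21.6% in either direction. The median log2 fold change was 0.01 over the markers and 0.01 over all tested genes, or -0.00 and -0.02 with the trend removed. The injured libraries are those of the first comparison.

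As scaled, Cux2 showed the lowest p of the 9 markers over the 3 comparisons. Its 60.4 to 67.4 CPM with αLFA1/VLA4 lay below the 82.8 to 94.0 CPM of injured mice. The means of 62.6 ± 3.21 CPM with αLFA1/VLA4 and 89.7 ± 4.78 CPM in injured mice (SD, n = 4 each) gave a log2 fold change of -0.52 (SE 0.06, edgeR adjusted p = 1.70e-04). The call held with each library left out, at -0.56 to -0.48. After removal of the trend it was -0.27 (SE 0.05, edgeR adjusted p = 0.00326), where the call also held with each library left out. The median of all genes of 55 to 60% GC was -0.16. Cux2 overlaps 2 annotated antisense genes, and whether any of their reads were counted for it was not tested.

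Cux1 had 61.6 to 78.6 CPM with αLFA1/VLA4 and 80.8 to 89.4 CPM in injured mice, without overlap. No overlap between these groups was found in 22.0% of all tested genes. The log2 fold change of -0.25 passed as scaled (SE 0.08, edgeR adjusted p = 0.0385), and not with the trend removed (-0.12, edgeR adjusted p = 0.267). As scaled it passed only without replicate 3 given αLFA1/VLA4 or injured replicate 2, with an edgeR adjusted p = 0.0513 to 0.140 when any other library was left out. Cux1 overlaps 4 annotated genes, among them an antisense gene. In intron reads Cux1 ran the other way, with a log2 fold change of 0.47 that did not pass (edgeR adjusted p = 0.192). Intron reads numbered 3 to 184 per marker and library, and no marker passed on them. In that fit 0.674% of 11279 tested genes were called with αLFA1/VLA4 against uninjured mice, 9.50% with αLFA1/VLA4 against injured mice and 0.488% in injured against uninjured mice.

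Etv1 had 64.7, 77.8, 93.3 and 64.8 CPM with αLFA1/VLA4, against 43.9 to 66.8 CPM in injured mice. The 2 lowest treated libraries fell within the range of injured mice and replicate 3 stood highest. Etv1 gave a log2 fold change of 0.45 (SE 0.15, edgeR adjusted p = 0.0438), and 0.35 (SE 0.07, edgeR adjusted p = 0.00448) with the trend removed. The second form held with each library left out, at 0.27 to 0.40. As scaled, the call was lost without replicates 2 or 3 given αLFA1/VLA4 or injured replicates 2, 3 or 4 (edgeR adjusted p = 0.0808 to 0.130).

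Tle4 had 57.4, 66.3, 70.0 and 58.5 CPM with αLFA1/VLA4, against 44.8 to 61.1 CPM in injured mice. The overlap came from injured replicate 1 at 61.1 CPM, the others being at most 51.6 CPM. For Tle4 the log2 fold change of 0.30 passed as scaled (SE 0.10, edgeR adjusted p = 0.0421) and was 0.15 with the trend removed (edgeR adjusted p = 0.0660). As scaled, the call was lost without replicates 2 or 3 given αLFA1/VLA4 or injured replicates 2, 3 or 4 (edgeR adjusted p = 0.0779 to 0.125).

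Rorb had 37.2, 39.6, 44.2 and 36.3 CPM with αLFA1/VLA4, against 30.8 to 40.4 CPM in injured mice, and did not pass (log2 fold change 0.20, edgeR adjusted p = 0.153). Tbr1 differed by a log2 fold change of 0.02 (SE 0.08, edgeR adjusted p = 0.867), its 88.4 to 90.2 CPM lying inside the injured range of 74.4 to 99.5 CPM. Lamp5 had a log2 fold change of -0.12 (edgeR adjusted p = 0.381) as scaled and -0.17 (SE 0.04, edgeR adjusted p = 0.0142) with the trend removed. Rasgrf2 and Fezf2 had log2 fold changes of -0.05 and 0.01. Without the trend, 1 of 9 markers was higher (Etv1) and 2 were lower (Cux2, Lamp5), against 9.74% of all tested genes higher and 12.5% lower, 22.3% in either direction.

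On TPM the whole distribution of genes was shifted between groups, and the calls differed. On log2(TPM + 1), limma called Cux2 (0.35) and Fezf2 (0.27) higher and 0 of 9 lower in injured against uninjured mice, against 32.4% of all tested genes higher and 2.16% lower, 34.6% in either direction. With αLFA1/VLA4 against uninjured mice it called Tbr1 lower (-0.30) and 0 of 9 higher, against 0.957% of genes lower and 6.73% higher, 7.69% in either direction. With αLFA1/VLA4 against injured mice Cux1, Cux2 and Lamp5 were lower and 0 of 9 higher, against 23.5% of genes lower and 4.50% higher, 28.0% in either direction. The calls on TPM that were also made by edgeR as scaled were Cux2 in injured against uninjured mice, Tbr1 with αLFA1/VLA4 against uninjured mice, and Cux1 and Cux2 with αLFA1/VLA4 against injured mice.

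Ratios of markers within a library do not depend on how libraries are scaled to each other. The ratios shown join Cux2, Tbr1 and Etv1, which were all called above in these same libraries. They are therefore a description and no separate support for those calls. The TPM ratio of Cux2 to Tbr1 was 0.303, 0.306, 0.330 and 0.305 with αLFA1/VLA4, 0.404, 0.422, 0.446 and 0.559 in injured mice, and 0.323, 0.298, 0.320 and 0.302 in uninjured mice. All injured libraries were above all others, while the ranges with αLFA1/VLA4 and in uninjured mice overlapped. The ratio of Etv1 to Tbr1 was 0.398 to 0.566 with αLFA1/VLA4, 0.322 to 0.367 in injured mice and 0.349 to 0.460 in uninjured mice. It was higher in each library with αLFA1/VLA4 than in each injured one, and overlapped between both injured groups and uninjured mice. The ratio of Cux2 to Etv1 averaged 0.685 ± 0.0898 with αLFA1/VLA4, 1.35 ± 0.271 in injured mice and 0.821 ± 0.0892 in uninjured mice (SD, n = 4 each). The members of each pair differ in GC content, 58.1% for Cux2, 54.8% for Tbr1 and 46.1% for Etv1, and the part of GC content in these ratios was not tested.

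**Figure D4:**
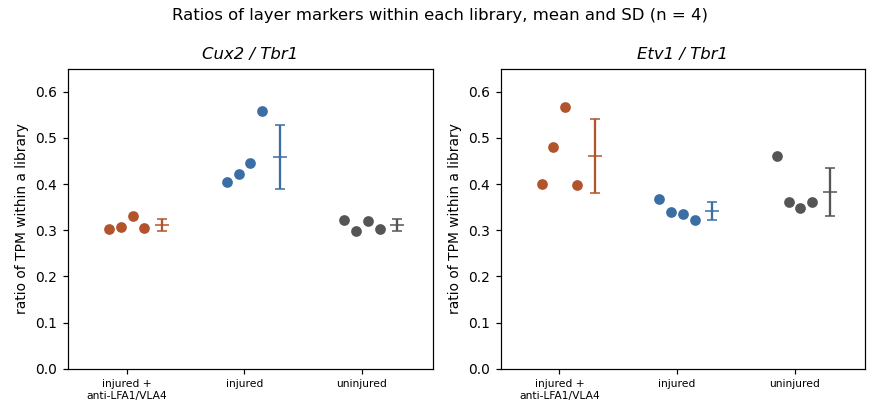
Ratio of TPM within each library (vertical axes) for Cux2 over Tbr1 and for Etv1 over Tbr1 in injured mice given αLFA1/VLA4, injured mice and uninjured mice (points), with the mean and SD of 4 libraries. Cux2 over Tbr1 is 0.404 to 0.559 in injured mice and at most 0.330 elsewhere.

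Injured replicate 4 had the lowest share of mitochondrial reads, 4.75%. On TPM, Tbr1 was lowest in replicate 4 given αLFA1/VLA4 (49.5 TPM). Tle4 and Rorb were lowest on TPM in injured replicate 2 (26.3 and 8.29 TPM). In normalised CPM, injured replicate 4 was the lowest library of all 12 for Tbr1, Etv1, Tle4 and Rorb and the highest for Cux2. Without it, Tbr1 still passed against uninjured mice, at -0.29 on the log2 scale (edgeR adjusted p = 0.0187), and Etv1 (-0.42), Tle4 (-0.28), Rorb (-0.30) and Cux2 (0.16) no longer passed (edgeR adjusted p = 0.0852 to 0.127), against -0.50, -0.32, -0.33 and 0.20 with it. Each of those 4 calls was also lost without some other single libraries. Injured mice as a group had the lowest shares of mitochondrial reads, and the part of that difference in the marker levels was not tested.

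Other layer markers from a wider list were read in the same fit. Counts here and below compare with the shares of all tested genes called. As scaled, these were 11.9% higher and 11.0% lower in injured against uninjured mice. With αLFA1/VLA4 they were 6.30% and 3.22% against uninjured mice, and 10.9% and 10.7% against injured mice. With the trend removed they were 6.24% and 10.6%, 7.72% and 13.4%, and 9.74% and 12.5%, in the same order. Counts near these shares are not particular to a list. Of 13 further markers of layers II to IV, 2 were higher and 1 lower in injured than in uninjured mice, with a median log2 fold change of 0.11. With αLFA1/VLA4, 0 were higher and 1 lower against uninjured mice (median -0.23), and 0 were higher and 5 lower against injured mice (median -0.20). With the trend removed the counts were 0 higher and 2 lower in injured against uninjured mice (median -0.03). With αLFA1/VLA4 they were then 0 higher and 4 lower against uninjured mice (median -0.14), and 1 higher and 3 lower against injured mice (median -0.01). Unc5d, a netrin receptor, averaged 25.4 ± 2.80 CPM in injured and 42.6 ± 9.01 CPM in uninjured mice (SD, n = 4 each; log2 fold change -0.74, edgeR adjusted p = 0.0103). Lhx2 and Wfs1 were the 2 that rose in injured mice, by 0.25 and 0.18, and were at -0.03 each with the trend removed. Plxnd1, a semaphorin receptor, and Otof were lower with αLFA1/VLA4 than in injured mice, by log2 fold changes of -0.36 and -0.45, and at -0.18 and -0.28 they also passed with the trend removed.

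Of 18 further markers of layers V and VI, 1 was higher and 6 were lower in injured than in uninjured mice (median log2 fold change -0.15). With αLFA1/VLA4, 0 passed against uninjured mice in edgeR or in DESeq2 (median -0.14), where 1 was higher and 2 lower at an unadjusted p under 0.05 and 4 were lower with the trend removed. Against injured mice 1 was higher and 2 lower with αLFA1/VLA4 (median 0.07), or 4 higher and 2 lower with the trend removed (median 0.04). Foxp2, a forkhead factor of layer VI that striatal and thalamic neurons also make, averaged 22.7 ± 1.17 CPM with αLFA1/VLA4, 14.4 ± 2.24 CPM in injured mice and 21.6 ± 2.38 CPM in uninjured mice (SD, n = 4 each). It was lower in injured than in uninjured mice, with a log2 fold change of -0.59 (edgeR adjusted p = 0.00487), and higher with αLFA1/VLA4 than in injured mice (0.66, edgeR adjusted p = 0.00145). Syt6, a synaptotagmin of layer VI, and Oprk1, the kappa opioid receptor, were lower in injured than in uninjured mice by log2 fold changes of -0.46 and -0.68. Tshz2 and Rprm were lower with αLFA1/VLA4 than in injured mice, at -0.53 and -0.34.

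Markers shared by forebrain excitatory neurons were tested as a further list. Their summed TPM, given above, was higher in injured than in uninjured mice, unlike the calls below. The median of all genes on log2(TPM + 1) was also higher in that comparison, at 0.16. Of 13, 4 were lower and 0 higher in injured than in uninjured mice, namely Lmo3 (-0.42), Neurod6 (-0.32), Bhlhe22 (-0.25) and Mef2c (-0.48), the last named after its value was seen. Neurod6 was at -0.11 with the trend removed and did not pass (edgeR adjusted p = 0.139). With αLFA1/VLA4, 4 were lower and 0 higher against uninjured mice, and 3 were lower and 2 higher against injured mice. With the trend removed, lower and higher genes numbered 7 and 0 in injured against uninjured mice, and with αLFA1/VLA4 7 and 0 against uninjured mice and 5 and 2 against injured mice. Slc17a7, the vesicular glutamate transporter of cortical neurons, averaged 684 ± 77.2 CPM with αLFA1/VLA4, 982 ± 101 CPM in injured mice and 934 ± 72.4 CPM in uninjured mice (SD, n = 4 each). It was lower with αLFA1/VLA4 than in injured mice (log2 fold change -0.52, edgeR adjusted p = 0.00243) and than in uninjured mice (-0.45, edgeR adjusted p = 0.00869). Camk2a, a kinase of excitatory synapses, and Emx1, a homeodomain factor of the cortex, were also lower with αLFA1/VLA4 than in uninjured mice, by -0.49 and -0.47.

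**Figure D5:**
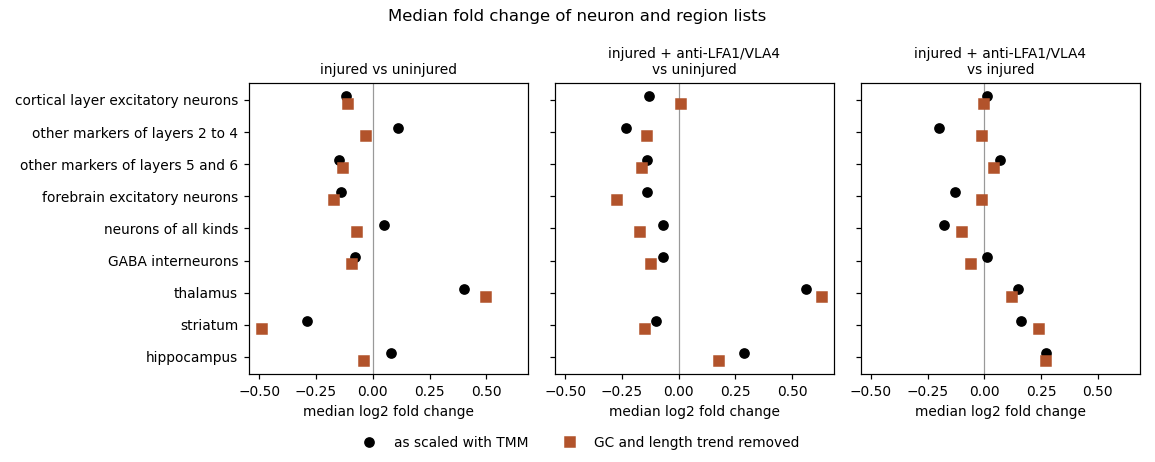
Median log2 fold change (horizontal axes) of the 9 layer markers and of 8 other neuron and region lists (rows) in 3 comparisons, as scaled with TMM (circles) and after removal of the trend (squares). The thalamus list has the highest median of the 9 lists in both comparisons with uninjured mice, 0.40 in injured mice and 0.56 with αLFA1/VLA4, and the striatum list is lowest in injured mice at -0.29.

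Markers of neighbouring regions and of other tissue moved with the groups. Of 12 thalamic markers, 7 were higher in injured mice and 9 with αLFA1/VLA4 than in uninjured mice, with 0 lower in either, and their summed levels are given above. Prkcd averaged 53.6 ± 1.2 CPM with αLFA1/VLA4, 62.6 ± 2.48 CPM in injured mice and 32.7 ± 2.18 CPM in uninjured mice (SD, n = 4 each). Of 15 striatal markers, 5 were lower in injured than in uninjured mice and 5 were higher with αLFA1/VLA4 than in injured mice, with 0 in the other direction. These counts were 13 and 8 with the trend removed, again with 0 in the other direction. Drd1, the dopamine D1 receptor, and Rarb were lower in injured than in uninjured mice, by log2 fold changes of -0.55 and -0.49, and higher with αLFA1/VLA4 than in injured mice, by 0.53 and 0.56. The part of these region differences in the layer markers was not tested.

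Of 8 skeletal muscle markers, 7 were higher with αLFA1/VLA4 than in either other group. Without Pvalb, which interneurons also make, the other 7 summed to 132 to 163 TPM with αLFA1/VLA4, 20 to 26.5 TPM in injured mice and 14 to 19.6 TPM in uninjured mice. No muscle marker was at 0 in all libraries of a group. Of 9 markers of fibroblasts and meninges, 7 were higher with αLFA1/VLA4 than in injured mice and 8 than in uninjured mice. Their summed level was 2225 to 3264 TPM with αLFA1/VLA4, 2303 to 2782 TPM in injured mice and 1379 to 1780 TPM in uninjured mice, with none at 0 in all libraries of a group. The sums of the injured groups overlapped, yet the median log2 fold change with αLFA1/VLA4 against injured mice was 1.23, with 0 lower. Col3a1 averaged 128 ± 8.23 CPM with αLFA1/VLA4, 10.6 ± 0.83 CPM in injured mice and 6.51 ± 0.814 CPM in uninjured mice (SD, n = 4 each). The part of this tissue in the levels of the layer markers was not tested.

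The genes most like a marker were sought over the 12 libraries, as the root mean square difference of log2 CPM centred on each gene. Tcf4 (0.0275) and Mmd (0.0297) were nearest to Rorb, Cd47 (0.0436) and Cacul1 (0.0470) to Tle4, and Pak3 (0.0393) and Stam (0.0582) to Etv1. Hr (0.0502) and Apba2 (0.0572) were nearest to Cux2, Dvl3 (0.0364) and Nsf (0.0425) to Cux1, and AI593442 and Vxn (0.0674 each) to Tbr1. Within the list Rorb and Tle4 were the closest pair at 0.0583. The other 4 markers called in a comparison were farther from any of the 9, at 0.114 or more. These distances are descriptions, and the libraries share the GC trend described above.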

How the data were processed

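Per the submitters' processing notes, CASAVA 1.8.2, FastQC 0.11.8, Trimmomatic 0.39 and the build GRCm38 were used. Neither the aligner nor the counting software is named: both were not given in the sources used here. Whether counting used the strand is unknown. The authors deposited, per gene, the count of total exon, unique exon, junction and intron reads. They also deposited TPM, which total exon reads over exon length gave back to within 5.0e-06. RPKM and the gene-level totals were not used. Symbols and coordinates matched GENCODE M21 on GRCm38.

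Total exon reads were tested in R 4.3.3 with the quasi-likelihood test of edgeR 4.0.16 (TMM scaling, filterByExpr, 12 libraries and 3 groups in 1 model, 9 residual degrees of freedom, two-sided, Benjamini-Hochberg over 14771 genes at 0.05). Normalised CPM is counts scaled to the TMM library size, and SE is that of the log2 fold change. The labels call the samples biological replicates of different mice. A GC and length trend per library was removed with mgcv 1.9.3 as an alternative. Other alternatives were DESeq2 1.42.0 size factors and Wald test, library size alone, limma 3.58.1 voom, limma on log2(TPM + 1) and log2(TPM + 0.1), other filters, unique exon reads, intron reads, only the compared groups, a replicate block, and each library left out. Those with both end libraries of the first principal component left out, and with the trend removed and a library left out, were chosen after seeing the data. The code was tested on simulated counts with 200 genes changed by known folds. Over the 3 comparisons it recovered 2.94 to 8.82% of 1.2-fold, 54.5 to 68.2% of 1.5-fold and 86.4 to 87.9% of 2-fold changes. A marker that did not pass can therefore still differ by a small fold. False calls made up 3.67 to 8.41% of all calls. The simulated counts held no GC or length trend, so the share of false calls in the real counts may differ.

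The 9 markers and the 15 other lists were chosen with earlier results of these data known. Named genes are the markers, at most 3 called genes of smallest p per other list and comparison, and the 2 genes nearest to each called marker. Some genes of the other lists are not reported here. Promoter sequences are from RefSeq, GRCm38.p6, where all 9 markers matched.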

Additional observations from a re-analysis of the deposited data

Results flagged for a closer look

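Cux2 in replicate 3 of injured mice given αLFA1/VLA4 stood apart from its group, at 67.4 CPM where the other 3 libraries had 60.4 to 61.3 CPM. Its gap to the nearest library was 0.873 of the range of the group, past Dixon's limit for 4 samples. Chance alone gives about 1 such result in 20 groups, and 27 groups (9 markers in 3 groups) were examined. Without this library Cux2 remained lower with αLFA1/VLA4 than in injured mice and than in uninjured mice in the edgeR test.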

How the results depend on the processing

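In injured against uninjured mice, the 1 higher marker (Cux2) became 0 with DESeq2 size factors, no filter, intron reads or the trend removed, 2 with limma on TPM (log2(TPM + 1) with and without filter, log2(TPM + 0.1)), and 0 to 1 with a library left out, or 0 in each such fit with the trend removed. The 4 lower became 2 with library size alone, 0 with intron reads or TPM, 1 to 4 with a library left out and 2 to 4 with the trend also removed. With αLFA1/VLA4 against uninjured mice, the 2 lower became 3 with DESeq2 size factors (Cux1 added, edgeR adjusted p = 0.0484), 0 with intron reads, 1 on TPM and 1 to 3 with a library left out. With both end libraries of the first principal component left out Tbr1 was lost (edgeR adjusted p = 0.0502) and Lamp5 gained (edgeR adjusted p = 0.0196). Against injured mice, the 2 higher became 1 with library size alone or the trend removed (1 to 3 with a library also left out), 0 with only the compared groups, intron reads or TPM, and 0 to 3 with a library left out. The 2 lower became 1 with no filter, only the compared groups or both end libraries of the first principal component left out, 0 with intron reads and 1 to 2 with a library left out. Rorb in injured against uninjured mice reversed to 0.05 with the trend removed (0.00, 0.04, 0.05, 0.06 or 0.08 with a library also left out), and Cux1 with αLFA1/VLA4 against injured mice to 0.47 in intron reads. The causes were not tested. Intron counts of the markers were far lower than their exon counts, 3 to 184 per marker and library.

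Same-numbered libraries correlated at -0.0117 to 0.434 in injured and uninjured mice, and different-numbered ones at -0.358 to 0.352. The value of 0.434 came from the replicates numbered 1. In αLFA1/VLA4 and injured mice the same-numbered range was -0.156 to 0.0456 and the different-numbered range -0.482 to 0.46. In αLFA1/VLA4 and uninjured mice these ranges were -0.532 to -0.0215 and -0.573 to 0.603. Whether replicate numbers pair the samples was not tested. With the replicate block, markers higher in injured against uninjured mice numbered 0, and with αLFA1/VLA4 against injured mice 0 were higher and 1 lower.

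Scaling moved the balance of all genes. In injured against uninjured mice 51.9% of called genes were higher as scaled, 76.0% with library size alone, 93.8% on log2(TPM + 0.1) and 37.1% with the trend removed. In the order of these 4 settings the shares with αLFA1/VLA4 were 66.2%, 86.3%, 87.6% and 36.6% against uninjured mice, and 50.5%, 43.8%, 15.6% and 43.7% against injured mice. On log2(TPM + 0.1) all genes had a median of 0.19 in injured against uninjured mice, and with αLFA1/VLA4 of 0.02 against uninjured and -0.15 against injured mice.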

Other observations

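The remaining lists of neurons and other brain cells were counted in the same edgeR fit. In that fit 11.9% of all tested genes were higher and 11.0% lower in injured against uninjured mice. With αLFA1/VLA4 6.30% were higher and 3.22% lower against uninjured mice, and 10.9% and 10.7% against injured mice. With the GC and length trend removed these shares were 6.24% and 10.6%, 7.72% and 13.4%, and 9.74% and 12.5%. Of 15 genes made by neurons of all kinds, 4 were higher and 4 lower in injured than in uninjured mice, 0 higher and 2 lower with αLFA1/VLA4 than in uninjured mice, and 2 higher and 7 lower with αLFA1/VLA4 than in injured mice. With the GC and length trend removed these counts became 1 higher and 5 lower in injured against uninjured mice, 1 and 9 with αLFA1/VLA4 against uninjured mice, and 0 and 4 with αLFA1/VLA4 against injured mice. Nefh, the heavy neurofilament protein of large axons, averaged 103 ± 4.84 CPM in injured and 79.2 ± 2.29 CPM in uninjured mice (SD, n = 4 each), while Snap25, a protein of synaptic vesicle release, averaged 2363 ± 267 CPM in injured and 3031 ± 45.6 CPM in uninjured mice. Of 13 interneuron genes, 1 was higher and 0 lower with αLFA1/VLA4 than in uninjured mice, and 2 were higher and 2 lower in injured than in uninjured mice, or 1 and 2, and 1 and 6, with the trend removed. Calb2, the calcium-binding protein calretinin, was higher than in uninjured mice both with αLFA1/VLA4 (log2 fold change 0.72, edgeR adjusted p = 0.00533) and in injured mice (0.83, edgeR adjusted p = 0.00291). Thalamic neurons also make calretinin. Gad1, a synthetic enzyme of GABA, was lower in injured than in uninjured mice (-0.21, edgeR adjusted p = 0.0227). Slc32a1, the vesicular GABA transporter, was higher (0.25, edgeR adjusted p = 0.0218), and at -0.09 did not pass with the trend removed. Among 7 hippocampal genes C1ql2 was higher than in uninjured mice, with log2 fold changes of 0.45 with αLFA1/VLA4 and 0.73 in injured mice.

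Glial and vascular lists gave these counts, to be read against the same shares of all tested genes. Of 11 microglial genes, 5 were higher and 0 lower with αLFA1/VLA4 than in uninjured mice, and 5 higher and 1 lower in injured than in uninjured mice. The lower gene was P2ry12, a receptor of resting microglia, with 35.1 ± 1.81 CPM with αLFA1/VLA4, 23.9 ± 4.17 CPM in injured mice and 40.9 ± 4.24 CPM in uninjured mice (SD, n = 4 each). Of 9 astrocyte genes, 1 was higher with αLFA1/VLA4 and 2 were higher in injured mice than in uninjured mice, Gfap in both. Of 10 oligodendrocyte genes, Mog was lower with αLFA1/VLA4 than in uninjured mice at a log2 fold change of -0.29, and Cldn11 was lower in injured than in uninjured mice at -0.38. Of 5 genes of oligodendrocyte precursors, Olig1 and Olig2 rose in injured against uninjured mice by log2 fold changes of 0.34 and 0.38, and at -0.01 and 0.09 neither passed with the GC and length trend removed. Of 8 endothelial genes, 1 was higher and 1 lower than in uninjured mice in each injured group. Cldn5, a tight junction protein, was higher at 0.62 with αLFA1/VLA4 (edgeR adjusted p = 0.0407) and 0.56 in injured mice (edgeR adjusted p = 0.0359). Slco1a4, an anion transporter of the blood-brain barrier, was lower than in uninjured mice, at -0.48 with αLFA1/VLA4 and -0.66 in injured mice. With the trend removed, 1 endothelial gene was higher and 3 lower with αLFA1/VLA4, 0 higher and 2 lower in injured mice, and Cldn5 in injured mice was at 0.17 and did not pass (edgeR adjusted p = 0.130).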
